A study of Mus musculus with 6 samples.

Results

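The genes described here are 42 mouse genes of DNA replication and S phase, chosen by name for their part in origin licensing, the replisome and nucleotide supply, out of 23791 named entries in the count table. All 42 passed the filter on low counts, which left 13832 genes for testing. They were measured by RNA sequencing in 6 libraries of RM1, a mouse prostate cancer line of C57BL/6 origin. The cells recovered from bone (1 library) and the cells recovered from lung (1 library) were RM1536, taken from the femur and the lung of the same mouse at day 16 after injection into the heart. RM1536 in culture (libraries a and b) is RM1 carrying luc2 (a luciferase) and eCFP (a fluorescent protein), a line built from pooled clones, and RM1 in culture (libraries a and b) carries no label. The injected cells bore the dye PKH26, and per the series' design text the recovered cells were PKH-negative and proliferating. Per the labels' protocols the cells were sorted and expanded in DMEM with 5% FBS to 85% confluency before RNA was taken, so all 6 libraries come from cells grown in a dish. The questions put by this design are how the labelled line differs from its parent, how the cells recovered from each organ differ from the labelled line, and how bone cells differ from lung cells.

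Replication origins are licensed in G1 phase, when the origin recognition complex, Cdc6 and Cdt1 load rings of Mcm2 to Mcm7 onto DNA. At the start of S phase, Cdc45 and the GINS complex turn these rings into active helicases, and polymerases, the sliding clamp and its loader copy both strands while histones and methylation marks are put back behind the fork. Most of these genes are transcribed in late G1 and S phase under E2F factors, so their RNA is widely read as a measure of how much a cell population is cycling.

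Most of the genes varied together from library to library, lowest in lung and highest in RM1536 b. Summed over the 42 genes, the level was 3101 CPM (counts brought to a common library total, with edgeR's TMM factors) in bone and 2067 in lung, against 3602 and 5250 in RM1536 a and b and 3598 and 2235 in RM1 a and b. The lung library had the lowest level of all 6 for 32 of the 42 genes, where 20.9% of all genes tested were lowest in lung. RM1536 b had the highest level for 38 of 42, against 20.9% of all genes. The duplicates of each line also stood apart: RM1 a was above RM1 b for 39 of 42 genes (51.6% of all genes), with a median ratio of 1.68, and RM1536 b was above RM1536 a for 41 of 42 (49.5% of all genes), with a median ratio of 1.46. For 15 of the 42 genes RM1 a was at least 2-fold above RM1 b, against 1.76% of all genes. A lower level can come from fewer cells in S phase or from less RNA of these genes per cell, and the 2 cannot be told apart in bulk RNA.

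**Figure D1:**
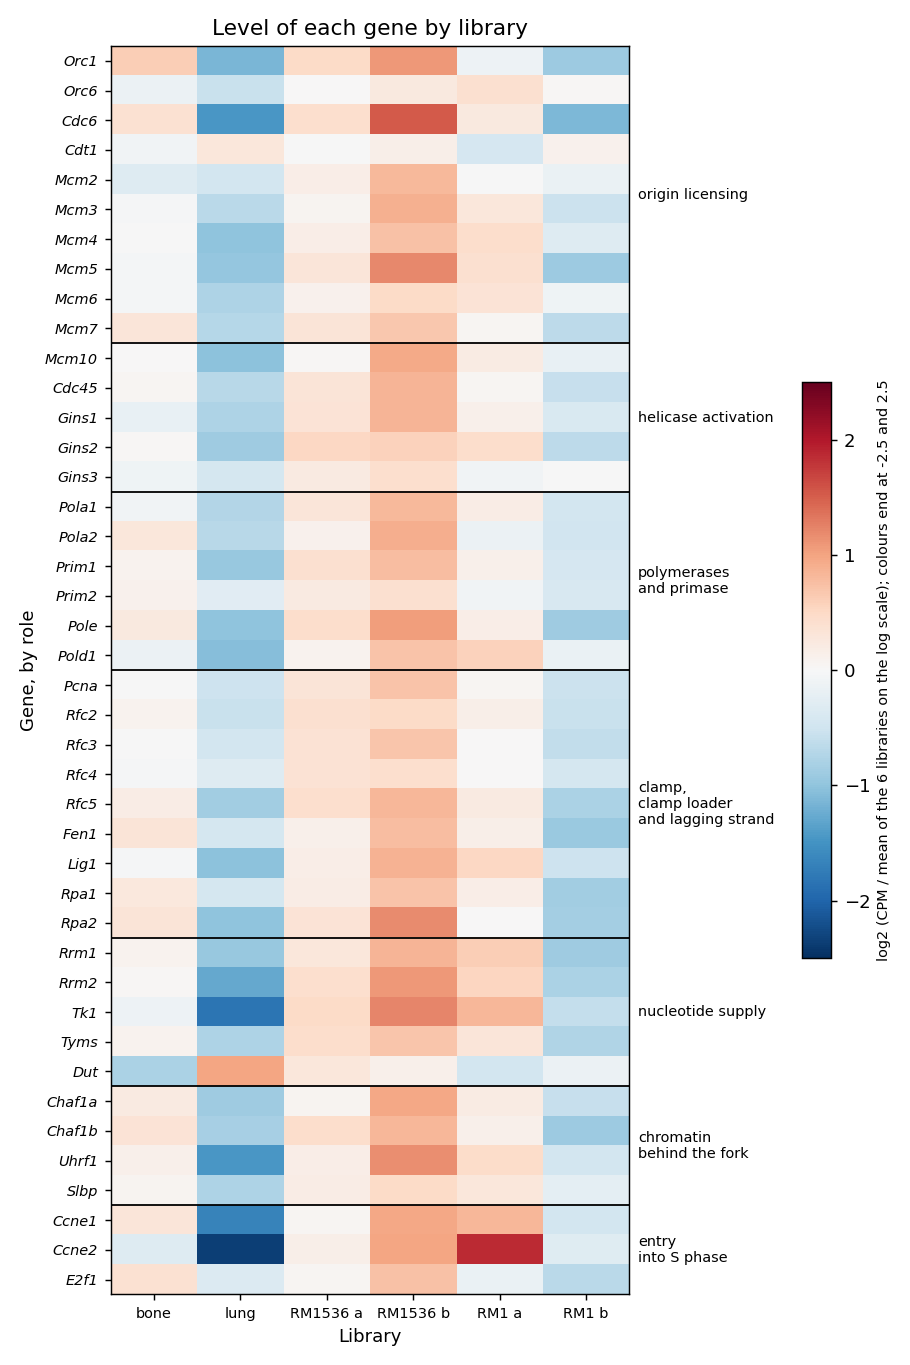
Level of each of the 42 genes (rows, by role) in each library (columns), as log2 of its CPM over the mean of the 6 libraries, red above and blue below. The lung column is blue and the RM1536 b column red for all but a few genes, and Dut and Cdt1 are the 2 rows that are red in lung.

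Library totals ran from 22763835 to 30303566 counts, and the 42 genes took 0.195% (lung) to 0.535% (RM1536 b) of them. Marker levels here are CPM by total counts, without TMM factors. The epithelial keratins Krt8 (990 to 2370 CPM) and Krt18 were expressed in every library, while the prostate marker Hoxb13 and the basal keratin Krt5 were at 0 in all 6. Summed leukocyte markers were 5.58 CPM in bone and 3.35 in lung, against 0.288 and 0.198 in RM1536 a and b and 1.66 and 2.0 in RM1 a and b. Of these, Lyz2 had 61 counts in bone and 73 in lung and none in culture, and the pan-leukocyte gene Ptprc had 0 to 2 counts per library. Laptm5 had 55 counts in bone and 7 in lung, against 6 and 4 in RM1536 a and b and 46 and 54 in RM1 a and b. It carried most of the RM1 sums (1.52 and 1.96 CPM) and 2.42 CPM of the bone sum. Summed erythroid, endothelial and lung epithelial markers were at most 1.56 CPM in any library, and bone cell markers were 7.51 CPM in bone and 13.3 in lung, against 3.01 and 1.32 in RM1536 and 24.4 and 6.49 in RM1. Different genes carried these sums. Ctsk had 6.28 CPM in bone and 12.4 in lung, against 2.35 and 0.627 in RM1536 and 0.0662 and 0.0726 in RM1. Dmp1 had 24 and 6.13 CPM in RM1, against 0.439 in bone, 0.186 in lung and 0.329 and 0.429 in RM1536. The mitochondrial share of counts was 1.83% in bone and 1.95% in lung, against 1.30% and 1.20% in RM1536 and 0.932% and 0.567% in RM1, and the part of these markers and of this share in the results was not tested.

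None of the 42 genes passed the test (edgeR's quasi-likelihood test, Benjamini-Hochberg adjusted p under 0.05 over all genes) in any of the 4 comparisons. The share of all genes called was 5.64% for RM1536 against RM1, 0.0145% for bone against RM1536, 0% for lung against RM1536 and 0.00723% for bone against lung. Before adjustment, 3176, 1372, 1902 and 1171 genes had p under 0.05 in the same order, and DESeq2 called 12 of the 42 genes in lung against RM1536 (2.94% of all genes) and 1 in bone against lung (1.81% of all genes). Values given below for single genes are therefore levels and differences, with their SE, and not calls. Bone and lung have 1 library each and the spread comes from the culture duplicates, so no test here covers the spread between animals.

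The licensing factors varied widely. Cdc6, the ATPase that brings the Mcm ring to the origin complex (chr11:98907801-98923940, GRCm38), had 37.4 CPM in bone and 10.4 in lung, against 38.5 and 83.4 in RM1536 a and b and 34.1 and 13.2 in RM1 a and b. Bone lay close to RM1536 a, lung lay below every culture library, and both RM1536 libraries were above both RM1 libraries. The difference was 2.58-fold higher in RM1536 than in RM1 (log2 1.37 ± 0.54, SE, adjusted p = 0.208), 5.85-fold lower in lung than in RM1536 (log2 -2.55 ± 0.75, adjusted p = 0.319) and 3.59-fold higher in bone than in lung (log2 1.84 ± 0.79, adjusted p = 0.594). DESeq2 called the lung difference (adjusted p = 0.00958). Orc1, the largest subunit of the origin recognition complex and one that is degraded after licensing in human cells, had 8.39 CPM in bone and 2.49 in lung, against 7.64 and 11.6 in RM1536 and 5.04 and 2.94 in RM1. The RM1536 libraries were again above the RM1 libraries without overlap (log2 1.27 ± 0.40, adjusted p = 0.135, the lowest adjusted p of the 42 genes in this comparison), and bone was above lung (log2 1.75 ± 0.59, adjusted p = 0.528). Orc6, the smallest subunit of the same complex, had 37.4 CPM in bone and 28.3 in lung, against 41.95 and 49.3 in RM1536 and 54.5 and 42.2 in RM1, and it was 1 of only 2 genes with a mean below RM1 in RM1536 (log2 -0.08 ± 0.23).

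Cdt1, the partner of Cdc6 in ring loading and the protein held in check by geminin (chr8:122568015-122573554, GRCm38), did not follow the others. It had 96.8 CPM in bone and 126 in lung, against 102 and 114 in RM1536 a and b and 77.8 and 111 in RM1 a and b. Lung was the highest library and the values spanned less than those of any other gene in the list (range 0.70 on the log2 scale). Against RM1536, lung differed by log2 0.22 ± 0.29 (adjusted p = 0.743).

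The 6 genes of the Mcm ring were lower in lung than in both RM1536 libraries without exception, by log2 -0.98 ± 0.34 (Mcm2) to -1.78 ± 0.65 (Mcm5). Mcm2 had 143 CPM in bone and 131 in lung, against 201 and 315 in RM1536 and 179 and 160 in RM1. Both organ libraries were thus below all 4 culture libraries, and Mcm2 was 1 of 2 genes with an unadjusted p under 0.05 in bone against RM1536 (log2 -0.85 ± 0.34, adjusted p = 0.494). In RM1536 against RM1 it differed by log2 0.60 ± 0.27 (adjusted p = 0.251). Mcm5 had 96.7 CPM in bone and 51.1 in lung, against 122 and 229 in RM1536 and 132 and 53.1 in RM1. RM1 a lay above RM1536 a, so the lines overlapped, and RM1 b was as low as lung. Its differences were log2 0.93 ± 0.49 in RM1536 against RM1 (adjusted p = 0.326) and log2 -0.86 ± 0.62 in bone against RM1536 (adjusted p = 0.758). Mcm4 had 115 CPM in bone and 57.2 in lung, against 129 and 192 in RM1536 and 158 and 92.5 in RM1, and DESeq2 called its lung difference (adjusted p = 0.0426). Mcm3, Mcm6 and Mcm7 differed by log2 -1.20 ± 0.49, -1.08 ± 0.33 and -1.23 ± 0.38 in lung against RM1536, and bone lay below both RM1536 libraries for each of them.

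The ring holds 1 copy of each subunit, and its 6 RNAs can be compared per length. Per kb of all annotated exons, the highest of the 6 over the lowest was 2.27 in bone, 2.25 in lung, 1.80 and 1.87 in RM1536 a and b, and 2.39 and 3.38 in RM1 a and b. Mcm5 was the lowest in lung and RM1 b, and Mcm2 was the lowest in the other 4 libraries. The order rests on the length used: per kb of the longest transcript Mcm2 was the highest in lung and was in no library the lowest, and Mcm5 or Mcm4 was the lowest.

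**Figure D2:**
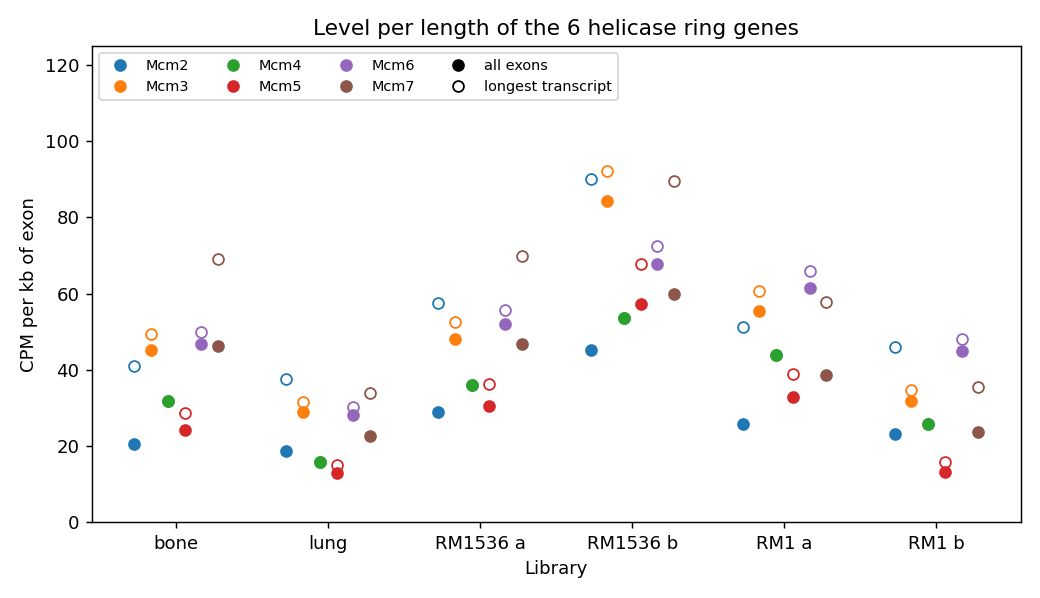
Level per kb of exon of the 6 Mcm ring genes (colours) in each library, with filled points for the length of all annotated exons and open points for the longest transcript. The filled points run from 12.8 to 28.8 CPM per kb in lung and from 45.2 to 84.4 in RM1536 b, and the 2 lengths place Mcm2 at different heights in the order.

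The promoters of Orc1, Cdc6 and Mcm5 are printed because they match an E2F site, are licensing genes, which held most matches, and are among the genes with the largest differences in at least 1 comparison. Each line is 250 bases before to 50 bases after the RefSeq start, on the coding strand (GRCm38.p6), with capitals where the sequence matches an E2F site.
Orc1: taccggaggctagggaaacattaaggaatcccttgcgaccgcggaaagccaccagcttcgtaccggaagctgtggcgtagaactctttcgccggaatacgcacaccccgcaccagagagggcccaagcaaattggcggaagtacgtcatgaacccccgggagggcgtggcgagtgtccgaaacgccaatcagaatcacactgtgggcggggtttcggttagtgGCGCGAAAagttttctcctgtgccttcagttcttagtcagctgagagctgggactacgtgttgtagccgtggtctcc
Cdc6: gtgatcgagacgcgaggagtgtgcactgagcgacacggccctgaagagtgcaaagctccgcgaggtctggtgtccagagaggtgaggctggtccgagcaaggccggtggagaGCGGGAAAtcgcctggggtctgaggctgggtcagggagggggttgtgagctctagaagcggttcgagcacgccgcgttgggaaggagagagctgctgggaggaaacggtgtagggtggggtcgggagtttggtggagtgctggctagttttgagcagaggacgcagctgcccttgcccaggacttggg
Mcm5: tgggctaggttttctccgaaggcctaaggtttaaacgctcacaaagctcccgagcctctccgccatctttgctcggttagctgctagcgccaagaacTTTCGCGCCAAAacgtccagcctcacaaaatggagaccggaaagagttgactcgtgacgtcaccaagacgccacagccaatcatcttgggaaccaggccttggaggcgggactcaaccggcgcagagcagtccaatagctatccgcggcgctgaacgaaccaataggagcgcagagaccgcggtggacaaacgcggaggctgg
These lie at chr4:108579204-108579503 (Orc1), chr11:98907901-98908200 (Cdc6) and chr8:75109259-75109558 (Mcm5), all on the plus strand. In Mcm5 a match on the plus strand and a match on the minus strand overlap, which gives 1 run of capitals.

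The E2F search used TTTCCCGC, TTTGGCGC, TTTCGCGC and TTTGCCGC on both strands. RefSeq promoters were matched for 35 of the 42 genes, and 13 of these (37.1%) held a match, against 4.63% of the 10024 tested genes with a promoter. The 13 were Orc1, Cdc6, Cdt1, Mcm3, Mcm5, Mcm6, Mcm7, Gins3, Pola1, Pold1, Rfc3, Lig1 and Uhrf1. By role, a match was found in 7 of 9 licensing genes, 1 of 3 helicase activation genes, 2 of 4 polymerase and primase genes, 2 of 8 genes of the clamp group, 0 of 5 nucleotide supply genes, 1 of 4 chromatin genes and 0 of 2 S phase entry genes. The CCAAT box (CCAAT, both strands) was in 60% of the 35 genes and 43.2% of tested genes, and the CHR element of mitotic genes (TTTGAA, both strands) in 11.4% and 14.1%. Genes with and without an E2F match had like differences: in lung against RM1536 the median was log2 -1.31 for the 13 with a match and -1.32 for the 22 without, and in RM1536 against RM1 it was 0.67 and 0.72. A match of letters describes the window and does not show binding. Only these exact letters were searched, so genes without a match may still hold an E2F site. All windows of Cdc6, Mcm7, Dut and E2f1 lie inside the GENCODE span of the gene, so bases before that span were not searched for them. The comparison of genes with and without a match has the same limits.

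The 5 genes that turn the loaded ring into a helicase were lower in lung than in both RM1536 libraries. Gins1, a subunit of the GINS complex, had 16.2 CPM in bone and 10.7 in lung, against 23.3 and 33.2 in RM1536 a and b and 20.1 and 14.1 in RM1 a and b. Bone and lung were below both RM1536 libraries, and bone lay between the RM1 duplicates (bone against RM1536 log2 -0.81 ± 0.38, adjusted p = 0.578). Mcm10, which joins the helicase to the polymerases, had 29.5 CPM in bone and 14.2 in lung, against 29.9 and 56.6 in RM1536 and 33.8 and 25.7 in RM1, and DESeq2 called its lung difference (adjusted p = 0.0483). Cdc45, the helicase cofactor, differed by log2 -1.30 ± 0.40 in lung against RM1536, Gins2 by log2 -1.44 ± 0.50 and Gins3 by log2 -0.75 ± 0.32. Gins2 shares 67.3% of its exon bases with Gse1 on the opposite strand, and since the strand setting of the counting is not given in the sources used here, reads of the 2 genes may not have been told apart.

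Among the polymerases, Pole, the catalytic subunit of the leading strand polymerase, had 47.8 CPM in bone and 20.05 in lung, against 54.5 and 84.0 in RM1536 a and b and 45.4 and 21.9 in RM1 a and b. RM1536 was above RM1 without overlap (log2 1.04 ± 0.40, adjusted p = 0.196), lung lay just below RM1 b, and bone lay between the lines. Pold1, the catalytic subunit of the lagging strand polymerase, had 60.8 CPM in bone and 32.2 in lung, against 72.0 and 110.7 in RM1536 and 100.7 and 60.6 in RM1. Here RM1 a lay between the RM1536 libraries, so the lines overlapped (log2 0.18 ± 0.33, adjusted p = 0.797). Prim1, the catalytic primase subunit, had 27.5 CPM in bone and 13.5 in lung, against 34.1 and 44.2 in RM1536 and 28.3 and 19.6 in RM1. Its lung difference had the lowest p of the 42 genes in that comparison (2.90-fold lower, log2 -1.54 ± 0.36, adjusted p = 0.297), and DESeq2 called it (adjusted p = 0.0197). The other primase subunit gene, Prim2, differed by log2 -0.60 ± 0.28, and the polymerase alpha genes Pola1 and Pola2 by log2 -1.31 ± 0.39 and -1.25 ± 0.40.

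Pcna, the sliding clamp that holds polymerases on DNA, had 251 CPM in bone and 178 in lung, against 316 and 418 in RM1536 a and b and 262 and 175 in RM1 a and b. RM1536 was above RM1 in both pairs of libraries (log2 0.75 ± 0.28, adjusted p = 0.184), and lung was level with RM1 b. Rpa2, a subunit of the complex that coats single-stranded DNA, had 39.6 CPM in bone and 15.9 in lung, against 40.4 and 72.0 in RM1536 and 32.2 and 17.8 in RM1. Its difference between RM1536 and RM1 was log2 1.17 ± 0.40 (adjusted p = 0.157), and bone lay next to RM1536 a. Lig1, which seals Okazaki fragments, differed by log2 -1.58 ± 0.53 in lung against RM1536, Rpa1 by log2 -0.92 ± 0.49, and the clamp loader genes Rfc2, Rfc3, Rfc4 and Rfc5 by log2 -0.71 (Rfc4) to -1.51 (Rfc5). Fen1, the flap nuclease of the lagging strand, had only 1.31 to 4.30 CPM. It shares 84.2% of its exon bases with genes on the opposite strand, among them Gm10143 and Tmem258, so its level is uncertain for the reason given for Gins2.

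Of the 5 nucleotide supply genes, 4 were lower in lung than in both RM1536 libraries and Dut was higher. Tk1, the thymidine kinase of the salvage pathway (chr11:117815526-117826092, GRCm38), had 50.9 CPM in bone and 15.8 in lung, against 77.5 and 130 in RM1536 a and b and 98.9 and 37.0 in RM1 a and b. It was 6.58-fold lower in lung than in RM1536 (log2 -2.72 ± 0.70, edgeR adjusted p = 0.298, DESeq2 adjusted p = 0.00152), 2.04-fold lower in bone (log2 -1.03 ± 0.63, adjusted p = 0.702) and 3.23-fold higher in bone than in lung (log2 1.69 ± 0.72, adjusted p = 0.594). Lung was below every other library, while bone lay between the RM1 duplicates. Rrm2, the cell cycle controlled subunit of ribonucleotide reductase, had 144 CPM in bone and 57.6 in lung, against 188 and 296 in RM1536 and 204 and 81.2 in RM1. RM1 a exceeded RM1536 a, and the difference between the lines was log2 0.76 ± 0.46 (adjusted p = 0.387), while lung was 4.20-fold lower than RM1536 (log2 -2.07 ± 0.63, adjusted p = 0.322). Rrm1, the large subunit, had 128 CPM in bone and 62.8 in lung, against 147 and 216 in RM1536 and 184 and 65.3 in RM1. Tyms, which makes thymidylate, had 48.2 CPM in bone and 26.7 in lung, against 61.4 and 73.5 in RM1536 and 55.7 and 27.1 in RM1. The lines did not overlap for Tyms (log2 0.70 ± 0.36, adjusted p = 0.311), and lung was level with RM1 b.

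Dut, the dUTPase that keeps uracil out of DNA (chr2:125247190-125258608, GRCm38), ran against all of the list but Cdt1 in lung. It had 94.2 CPM in bone and 321 in lung, against 197 and 176 in RM1536 a and b and 118 and 146 in RM1 a and b. Bone was the lowest library and lung the highest, with the 4 culture libraries between them. Dut was 1.98-fold lower in bone than in RM1536 (log2 -0.99 ± 0.27, adjusted p = 0.294), 1.72-fold higher in lung than in RM1536 (log2 0.78 ± 0.25, adjusted p = 0.323) and 3.40-fold lower in bone than in lung (log2 -1.77 ± 0.31, adjusted p = 0.25). DESeq2 called the bone to lung difference (adjusted p = 0.00019).

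Of the genes that rebuild chromatin behind the fork, Uhrf1, which reads hemimethylated DNA and recruits the maintenance methyltransferase, had 163 CPM in bone and 54.2 in lung, against 166 and 332 in RM1536 a and b and 205 and 108 in RM1 a and b. Bone was close to RM1536 a, and lung was below all other libraries, 4.59-fold lower than RM1536 (log2 -2.20 ± 0.59, edgeR adjusted p = 0.307, DESeq2 adjusted p = 0.00557). Chaf1b, a subunit of the histone chaperone CAF-1, had 29.9 CPM in bone and 13.2 in lung, against 32.1 and 41.8 in RM1536 and 25.8 and 12.5 in RM1, without overlap between the lines (log2 0.95 ± 0.38, adjusted p = 0.21). The large CAF-1 subunit gene Chaf1a differed in lung by log2 -1.47 ± 0.51, with the limit that 52.5% of its exon bases are shared with Ubxn6 on the opposite strand. Slbp, which binds the stem-loop of histone mRNAs, had 57.9 CPM in bone and 32.0 in lung, against 62.7 and 77.1 in RM1536 and 66.5 and 46.4 in RM1. The lines overlapped (log2 0.31 ± 0.25, adjusted p = 0.529) and lung was the lowest library.

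The 2 E-type cyclins, which switch Cdk2 on at the entry into S phase, were among the genes with the largest differences in lung. Ccne2 (chr4:11191351-11204779, GRCm38) had 6.63 CPM in bone and 1.62 in lung, against 9.09 and 16.3 in RM1536 a and b and 30.0 and 6.69 in RM1 a and b. Its range over the 6 libraries was 18.6-fold, the widest of the list, and its RM1 duplicates lay on both sides of RM1536. Lung was 7.83-fold lower than RM1536 (log2 -2.97 ± 1.02, edgeR adjusted p = 0.326, DESeq2 adjusted p = 0.0273), and bone was 4.09-fold higher than lung (log2 2.03 ± 1.07, adjusted p = 0.638) and below RM1536 by log2 -0.94 ± 0.89 (adjusted p = 0.831). Ccne1 had 17.2 CPM in bone and 4.38 in lung, against 14.4 and 27.2 in RM1536 and 24.9 and 10.2 in RM1. Bone lay within the RM1536 duplicates, and lung was 4.75-fold below them (log2 -2.25 ± 0.69, adjusted p = 0.323) and 3.92-fold below bone (bone against lung log2 1.97 ± 0.74, adjusted p = 0.572). Between the lines neither cyclin differed beyond the spread of the duplicates, with log2 0.25 ± 0.50 for Ccne1 (adjusted p = 0.814) and -0.53 ± 0.69 for Ccne2 (adjusted p = 0.70). The sign of these differences turned with the RM1 and RM1536 libraries used: without RM1 a, Ccne2 was at 0.89, and without RM1536 b or RM1 b, Ccne1 was at -0.30 and -0.26. E2f1, a transcription factor of this gene set and itself cell cycle controlled, had 79.6 CPM in bone and 47.7 in lung, against 63.3 and 102 in RM1536 and 54.5 and 38.0 in RM1. RM1536 was above RM1 without overlap (log2 0.83 ± 0.31, adjusted p = 0.185) and bone was inside the RM1536 range.

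**Figure D3:**
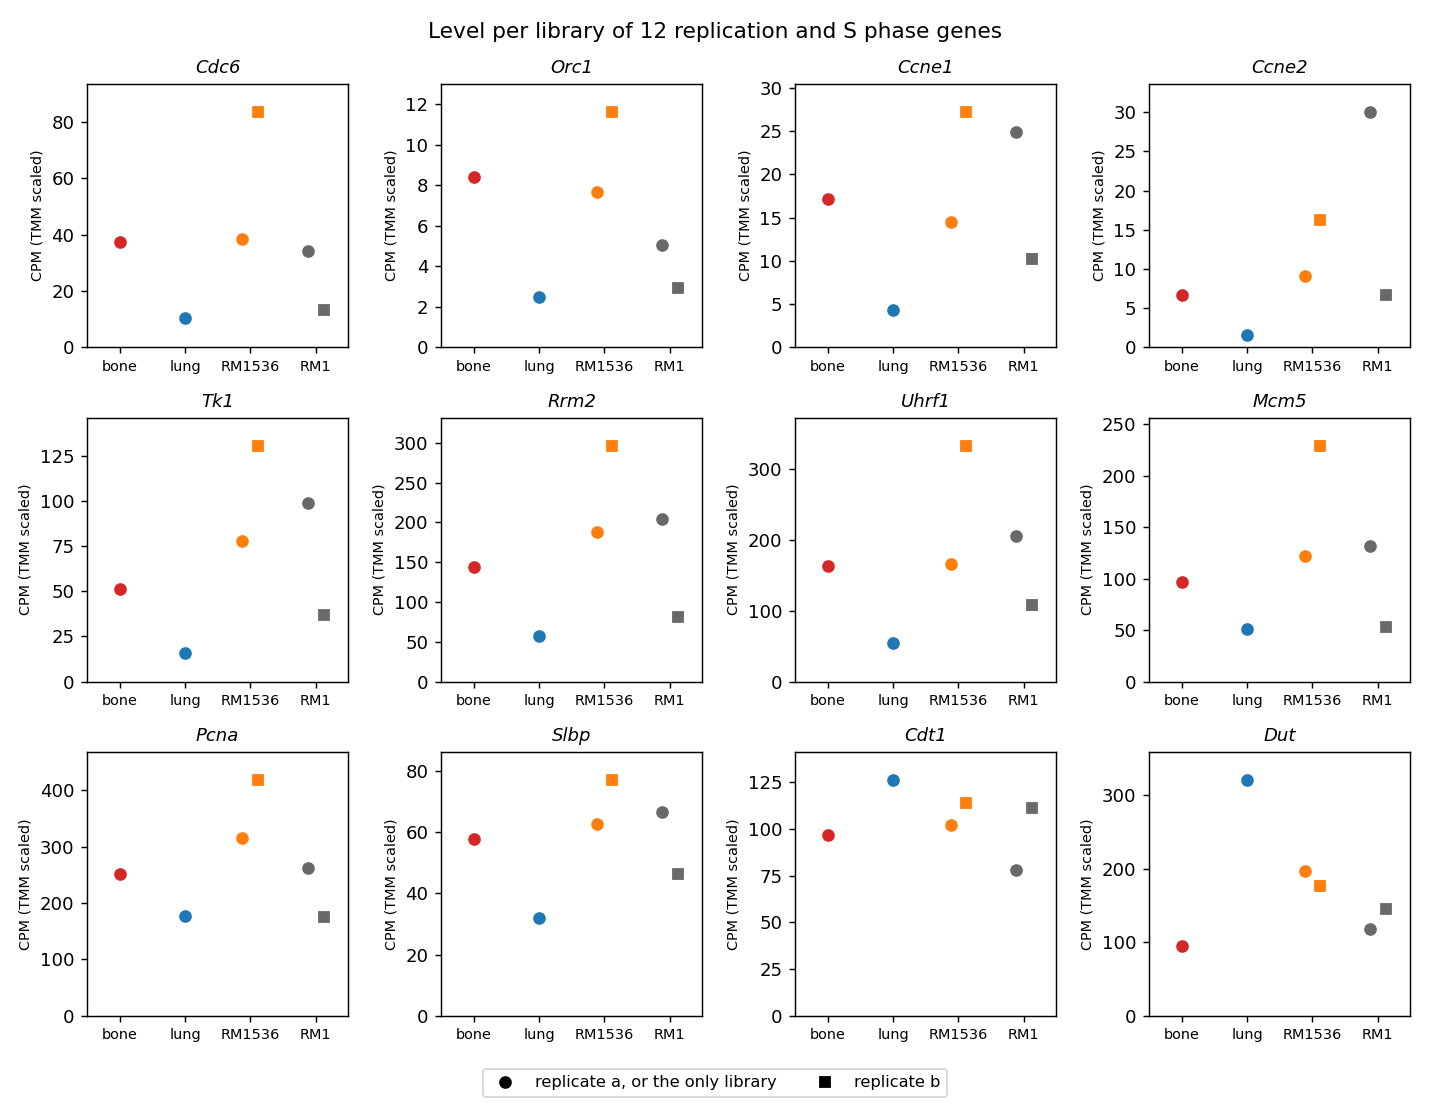
Level in CPM (linear axis from 0) of 12 of the genes, with 1 point per library (circles for replicate a or the only library, squares for replicate b) and the groups from left to right bone, lung, RM1536 and RM1. In 10 of the panels lung is below both RM1536 points, and in the Cdt1 and Dut panels it is the highest point.

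Set side by side over the whole list, RM1536 was higher than RM1 for 40 of 42 genes, with a median log2 fold change of 0.67 against 0.02 over all genes tested. An unadjusted p under 0.05 in this direction was reached by 14 of 42 genes, against 10.4% of all genes, and both RM1536 libraries were above both RM1 libraries for 24 of 42, against 27.2%. The duplicates decide how firm this is. Without RM1536 b the median was 0.40, without RM1 b it was 0.39, and without RM1 a it was 1.04.

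Bone was lower than the RM1536 mean for 42 of 42 genes, with a median log2 fold change of -0.50 against -0.03 over all genes. It was below both RM1536 libraries for 35 of 42 genes, against 35.1% of all genes, but an unadjusted p under 0.05 in this direction was reached only by Dut and Mcm2, a share near the 4.74% of all genes. RM1536 b carried much of the difference: without it the median was -0.19 and 35 genes were lower.

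Lung was lower than the RM1536 mean for 40 of 42 genes, with a median log2 fold change of -1.37 against -0.03 over all genes, and the exceptions were Dut and Cdt1. It was below both RM1536 libraries for the same number, 40 of 42, against 39.2% of all genes. An unadjusted p under 0.05 in this direction was reached by 32 of 42 genes, against 7.29% of all genes, and in the other direction by Dut. Without RM1536 b the median was -1.03 and 40 genes were lower. DESeq2 called Cdc6, Mcm4, Mcm10, Prim1, Pole, Pold1, Rpa2, Rrm2, Tk1, Uhrf1, Ccne1 and Ccne2 lower in lung, 12 of 42 against 2.94% of all genes. Scaling by total counts alone moved the median of all genes in this comparison by -0.12, and the median of the 42 genes was then -1.49. Set against the RM1 libraries, lung had a median log2 ratio over the 42 genes of -1.02 to RM1 a and -0.22 to RM1 b. The medians over all genes were -0.03 and -0.01. Lung was above RM1 a for 2 of the 42 genes and above RM1 b for 10.

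Bone was higher than lung for 40 of 42 genes, with a median log2 fold change of 0.92 against 0.02 over all genes, and Dut and Cdt1 were lower. An unadjusted p under 0.05 was reached by 4 genes higher in bone (Orc1, Prim1, Uhrf1 and Ccne1), against 3.78% of all genes, and by Dut lower in bone, against 4.68%. The bone and lung comparisons use the same RM1536 libraries, and this comparison sets 1 library against 1.

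**Figure D4:**
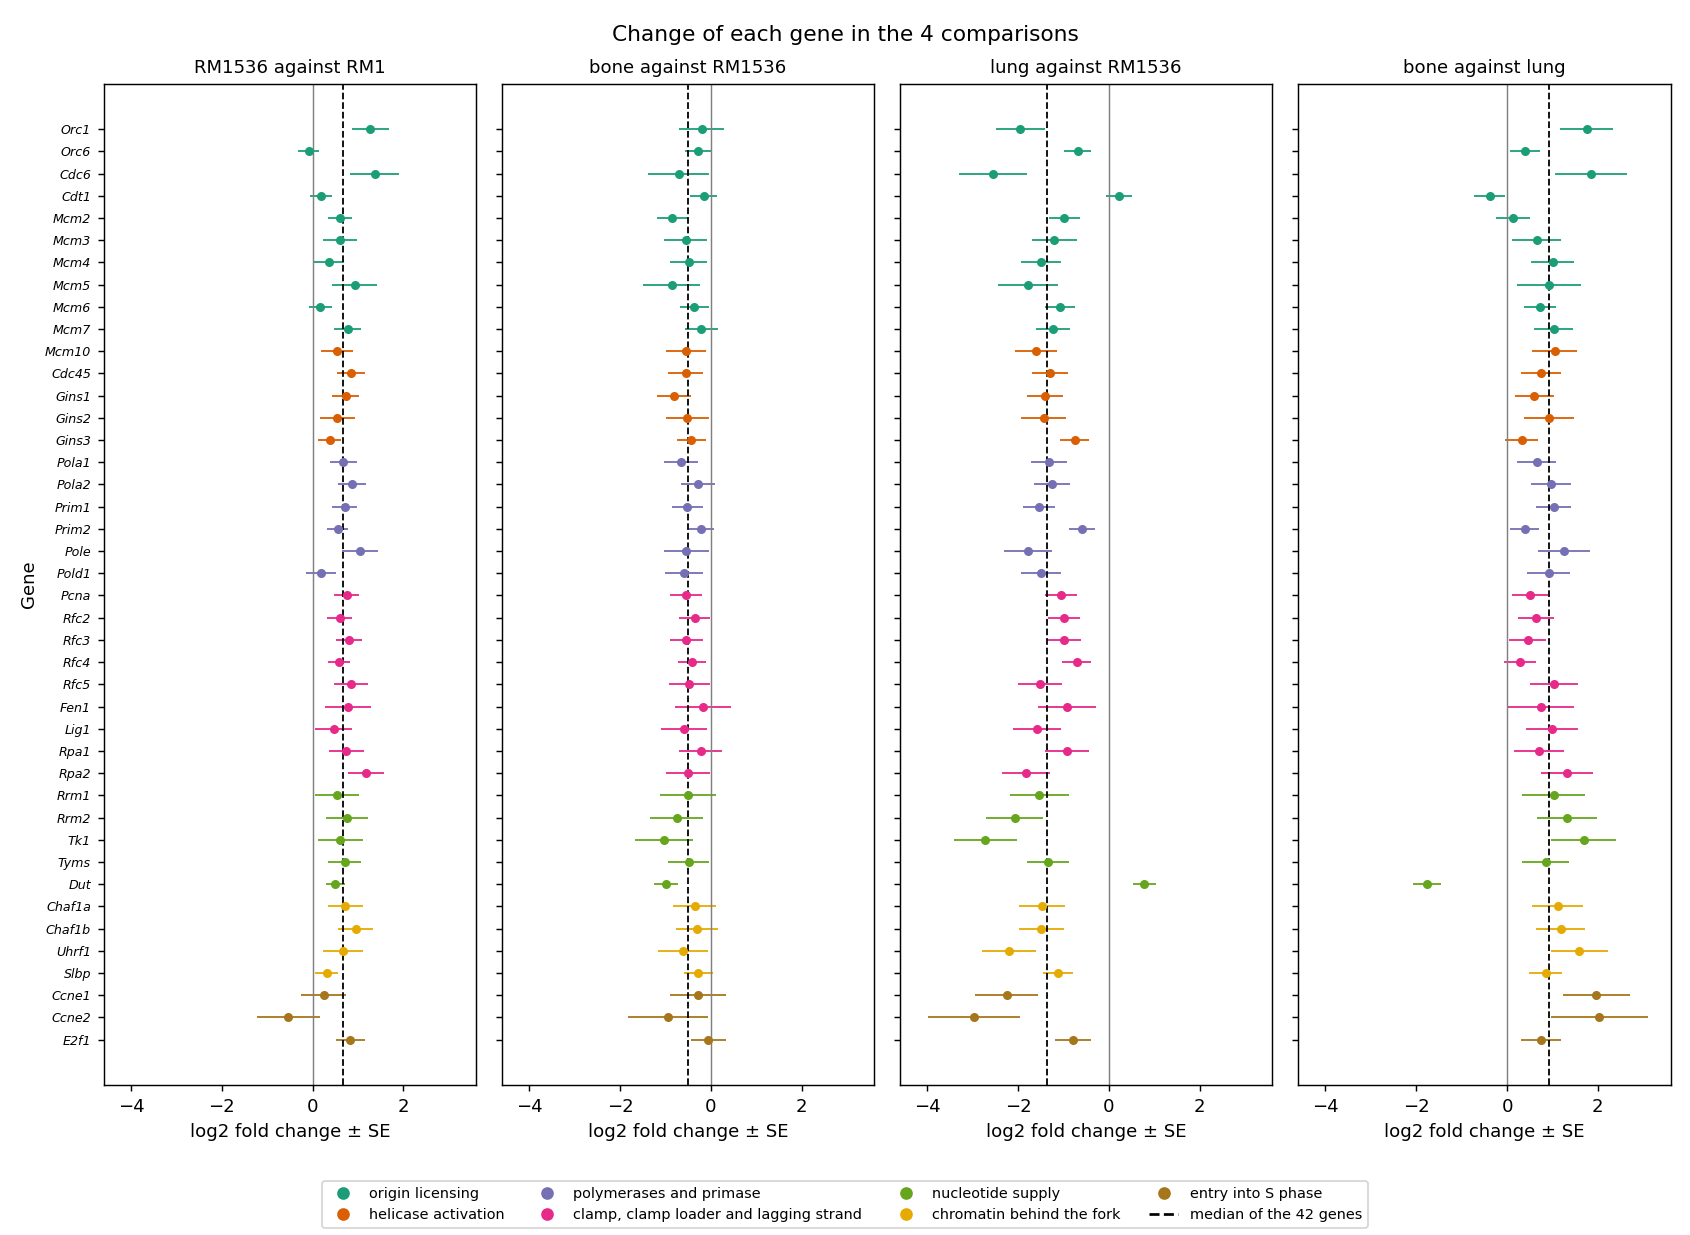
Log2 fold change of each of the 42 genes with its SE in the 4 comparisons, coloured by role, with a dashed line at the median of the 42. The median is 0.67, -0.50, -1.37 and 0.92 from left to right, and Dut and Cdt1 are the points right of 0 in lung against RM1536 and left of 0 in bone against lung.

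Of the 7 roles, 6 had their lowest median in the lung library, and the clamp group had it in RM1 b (log2 -0.615, with -0.519 in lung). In lung, the median level relative to the mean of the 6 libraries was log2 -0.52 for the clamp group, -0.75 for licensing, -0.78 for helicase activation, -0.84 for polymerases and primase, -0.86 for chromatin, -0.94 for nucleotide supply and -1.68 for the 3 S phase entry genes. Across the 6 libraries, 31 of the 42 genes had a Pearson r above 0.9 with the median of the other members, and the median r was 0.953. The lowest were Cdt1 at -0.363 and Dut at -0.356, followed by Orc6 at 0.717 and Ccne2 at 0.761. These r describe 6 libraries that share cell lines, with 2 of them from 1 animal, and carry no test.

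Most other genes of the pathway lay on the same side as the list. Of 84 further replication and S phase genes, 69 were higher and 15 lower in RM1536 than in RM1 (median log2 0.40), against 51.4% of all genes higher. In bone, 69 were lower than in RM1536 (median -0.34), against 52.5% of all genes. In lung, 77 were lower than in RM1536 (median -0.88, 0 called), against 52% of all genes. Of these, 40 had an unadjusted p under 0.05, against 7.29% of all genes. Bone was higher than lung for 75 (median 0.62), against 51.6% of all genes. The 1 gene of the 84 called in RM1536 against RM1, where 5.64% of all genes were called, was Orc3. Orc3, an origin recognition subunit, fell in RM1536. It had 14.2 and 12.9 CPM in RM1536 a and b, against 35.6 and 29.3 in RM1 a and b (log2 -1.26 ± 0.23, adjusted p = 0.0394), and the call was lost without any 1 of these 4 libraries. Pold4, the small accessory subunit of polymerase delta, went against the catalytic subunit gene Pold1. It had 60.2 CPM in bone and 34.1 in lung, against 31.6 and 15.7 in RM1536 and 67.1 and 80.4 in RM1, lower in RM1536 than in RM1 by log2 -1.64 ± 0.36 (adjusted p = 0.0582) and higher in bone than in RM1536 by log2 1.35 ± 0.42 (adjusted p = 0.348). Mitosis genes (12 in all, none called) had a median of 0.58 for RM1536 over RM1, -0.55 for bone over RM1536, -1.15 for lung over RM1536 and 0.71 for bone over lung. The medians over all genes tested were 0.02, -0.03, -0.03 and 0.02 in the same order.

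Named by size of difference in each further list at a mean of at least 5 CPM, none of the following was called. For RM1536 over RM1 these were Recql4 (log2 0.83), the nuclease gene Dna2 (1.17), the kinase gene Dck of nucleoside salvage (1.00), Nme1 (0.63), the chromatin remodeller gene Hells (1.11), Atad2 (0.90), the checkpoint kinase gene Chek1 (1.01), E2f7 (0.81), and among mitosis genes Bub1 (0.98) and Aurkb (0.75). For bone over RM1536 they were the geminin gene Gmnn (-0.70), Rif1 (-0.64), 2810417H13Rik (-1.19), Dck (-0.67), Dctd (-0.58), Asf1b (-0.99), Hells (-0.67), Chek1 (-1.24), Cdkn1b (-0.92), Plk1 (-0.75) and Aurka (-0.73). For lung over RM1536 they were Cdc7 (-1.87), Gmnn (-1.76), Dna2 (-3.07), Exo1 (-2.31), Dck (-1.87), Hells (-1.76), Asf1b (-1.33), E2f7 (-1.99), Fbxo5 (-1.78), Cdc20 (-1.69) and Mki67 (-1.67). For bone over lung they were Cdc7 (1.49), Recql4 (-1.40), Dna2 (2.61), Wdhd1 (1.70), Ppat (1.42), Hells (1.08), Atad2 (0.64), Fbxo5 (1.21), E2f7 (1.14), Cdc20 (1.21) and Mki67 (1.14).

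Histone genes, whose mRNAs Slbp protects in S phase, did not follow the same order of libraries. The 59 replication-dependent histone entries summed to 376 CPM in bone and 316 in lung, against 178 and 284 in RM1536 a and b and 81.3 and 74.8 in RM1 a and b. Hist1h1c and Hist1h2bc carried most of these sums, and the other entries summed to 56.7 CPM in bone and 28.8 in lung, against 27.8 and 49.1 in RM1536 and 26.3 and 13.9 in RM1. Bone was the highest library with or without these genes, while lung was second with them and close to RM1536 a without them. Of the 31 that could be tested, 22 were lower in lung than in RM1536 (median log2 -0.54), against 52% of all genes. Their median relative to the mean of the 6 libraries was -0.03 in lung and 0.46 in RM1536 b. Of these 31 genes, 29 were higher and 2 lower in RM1536 than in RM1 (median log2 1.2), against 51.4% of all genes higher. Most of the 31 had a mean under 1 CPM, and a gene could pass the filter through 1 library. Hist1h2bn had 0.518 CPM in RM1536 b and at most 0.134 elsewhere, and Hist1h4c had 0.401 in RM1 a and at most 0.282 elsewhere. The counts of histone genes in each direction are thus partly set by the filter. Called higher were 3 of the 31, against 291 of all 13832 genes tested (5.64% were called in either direction). Hist1h2bc had 52.2 and 75.8 CPM in RM1536, against 8.01 and 10.1 in RM1 (log2 2.83 ± 0.28, adjusted p = 0.0101), and the call held without any 1 of the 4 culture libraries. Hist1h1c had 97.7 and 159 CPM in RM1536, against 47.0 and 50.8 in RM1 (log2 1.39 ± 0.28, adjusted p = 0.0482). Hist2h3c2 had 1.21 and 1.36 CPM in RM1536, against 0.234 and 0.106 in RM1 (log2 2.88 ± 0.57, adjusted p = 0.0468). Hist2h3c2 lost its call without any 1 of the 4 culture libraries, and Hist1h1c without RM1536 b, RM1 a or RM1 b. No histone gene was called for bone or lung, where those with the largest differences at a mean of at least 5 CPM were Hist1h2bc (bone over RM1536 log2 0.78), Hist2h2be (0.71, and 0.72 for bone over lung), Hist1h4i (lung over RM1536 -1.53, bone over lung 1.51) and Hist1h1c (lung over RM1536 0.75). Histone genes have near-identical copies and most of their mRNAs lack a poly(A) tail, so counts per copy are uncertain.

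**Figure D5:**
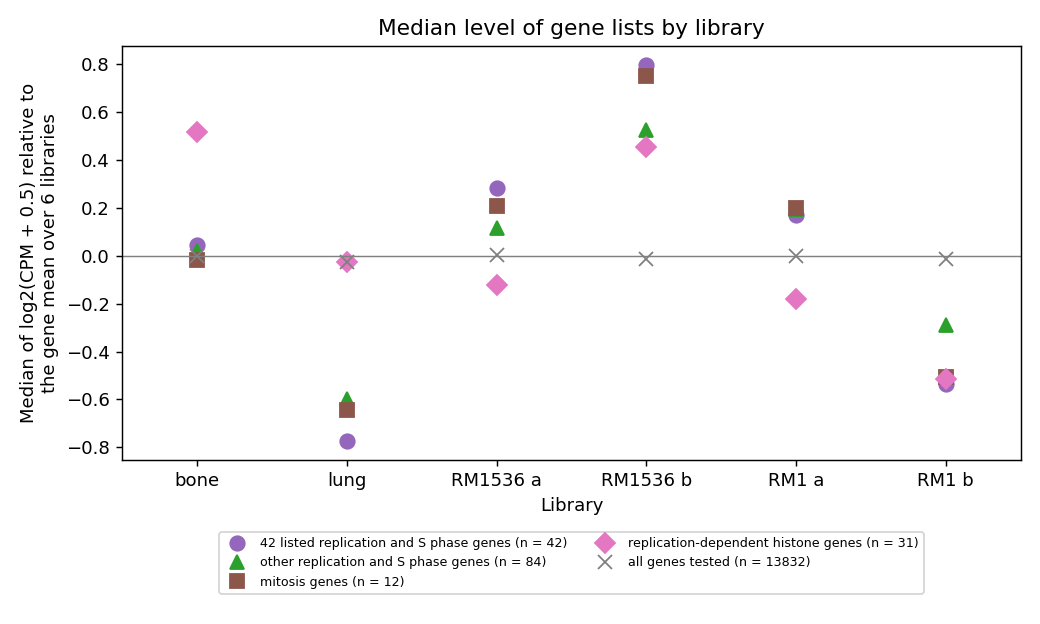
Median over each gene list of log2(CPM + 0.5) relative to the gene's mean over the 6 libraries, by library. The 42 genes, the 84 others and the mitosis genes are highest in RM1536 b and lowest in lung, while the histone genes are highest in bone and all genes tested stay near 0.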

How the data were processed

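The deposited table holds whole-number counts per gene, which the authors left unnormalized. The submitters' processing notes name TopHat2 2.1.10, HTSeq, edgeR and GRCm38; not given in the sources used here are their roles and the annotation, counting mode and strand setting. An entry without a name (0.00626% to 0.0083% of counts per library) was left out. The 42 genes and all lists were chosen with earlier results of these data known. Counts were tested in R 4.3.3 with edgeR 4.0.16 (TMM, filterByExpr by group, quasi-likelihood F test, 6 libraries in 1 model with 4 groups), and p-values were adjusted by Benjamini-Hochberg over 13832 genes, with a call at 0.05. The SE is the log2 fold change over the square root of F. The lone bone and lung libraries are taken to vary as the duplicates do. The labels do not say that a and b are separate cultures, so p-values measure only the spread between these libraries, which may be technical. The letters a and b did not pair the libraries (correlation of same-letter deviations -0.438, 2 pairs). Given in full were, in each comparison, the 6 genes with the largest absolute log2 fold change at a mean of at least 5 CPM, and 9 fixed genes in RM1536 against RM1; for other lists, called genes and the 2 with the largest difference, except a few genes not reported here. Cdt1, Orc6, Mcm4, Mcm10, Prim1, Pold1 and Rrm1 are given in full after their values were seen. Exon lengths and overlaps came from GENCODE M21 and promoters from RefSeq. The fit was tested on simulated data for RM1536 against RM1 only. The simulated spread was smaller than in these data, and the changes were larger than any of the 42 genes showed in that comparison. Alternatives were RLE factors, total counts, no filter, DESeq2 1.42.0, leaving out each culture library, the 4 culture libraries alone and a replicate block.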

Additional observations from a re-analysis of the deposited data

How the results depend on the processing

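Over all alternatives run, the median log2 fold change of the 42 genes kept its direction in every comparison. It moved by less than the spread between replicates (0.44). That spread comes from the same duplicates, so leaving out 1 culture library could hardly move the median by more. For those settings this limit therefore says little, and the medians without single libraries are given above. With total counts, bone against lung gave 0 genes called and 10 of the 42 with an unadjusted p under 0.05. With no filter on low counts, 2394, 859, 1299 and 754 genes were called for RM1536 over RM1, bone over RM1536, lung over RM1536 and bone over lung; of the 42, 13, 0, 30 and 8 were called, and 26, 9 and 25 had an unadjusted p under 0.05 in the first, second and last comparison. That setting tests 22081 genes. With DESeq2 the same counts of genes were 1471, 380, 359 and 221, with 12 of the 42 called in lung against RM1536, and 1 called and 12 with an unadjusted p under 0.05 in bone against lung. Leaving out 1 culture library at a time gave 196 to 513, 0 to 128, 0 to 7 and 1 to 32 genes called, and 0 to 27, 1 to 4, 13 to 35 and 9 to 18 of the 42 with an unadjusted p under 0.05; none of the 42 was called. Under these, Ccne1 in RM1536 against RM1 ran from -0.30 to 1.00 and Ccne2 from -1.24 to 0.89 on the log2 scale. The replicate block, by letters that only share a name, gave 295 genes called, 0 of the 42 and 1 with an unadjusted p under 0.05. Crossed pairs, added after seeing the data, called 3165 genes and 25 of the 42, with 32 of the 42 at an unadjusted p under 0.05. Both block settings test 12964 genes. The crossed pairs put RM1 a with RM1536 b, the duplicates with the higher level for most of the 42 genes. The cause of these moves was not tested. With 1 library each for bone and lung and duplicates that differ, the number of libraries limits the precision.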
